A study of Mus musculus with 6 samples.

Results

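CatSper is the calcium channel of the sperm tail, and its 10 subunit genes Catsper1, Catsper2, Catsper3, Catsper4, Catsperb, Catsperd, Catsperg1, Catsperg2, Catsperz and Efcab9 are described here in testes with and without the kinesin KIFC1. They were chosen by name as the pore and auxiliary subunits of the channel, and each was located through its Ensembl identifier in GENCODE M21. All 10 were among the 51826 genes listed, and all 10 passed the filter on low counts, as did 21518 genes in all. Bulk RNA sequencing was done on whole testis of C57BL/6J mice aged 8 weeks, in 3 samples labelled wild-type and 3 labelled KIFC1 knockout. KIFC1 is a kinesin-14 motor that moves towards microtubule minus ends, and the series title places it in meiotic recombination and male fertility. The labels do not give the allele, whether the gene was removed in all cells or in germ cells alone, or whether animals were pooled.

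The CatSper pore is built from 4 different subunits, CATSPER1 to CATSPER4, which are arranged in a ring around a calcium-selective pore in the principal piece of the flagellum. The auxiliary subunits CATSPERB, CATSPERD and CATSPERG form a canopy over the pore outside the cell, while CATSPERZ and the EF-hand protein EFCAB9 bind it from inside and tie its gating to pH and calcium. The channel opens as the sperm cytoplasm becomes alkaline, drives hyperactivated swimming and is required for male fertility in mice. Its genes are transcribed in the testis by germ cells, well before the tail becomes motile.

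The stretch of coding sequence that separates the pore genes from the rest encodes threonine, any residue, aspartate, any residue and tryptophan, the motif at the mouth of the calcium-selective pore. It was searched in frame in 1 representative transcript per gene, and it occurred 1 time in each of Catsper1, Catsper2, Catsper3 and Catsper4 and 0 times in the other 6 genes. The motif codons are in capitals in the 57 bases shown for each gene, which identify the 4 transcripts compared below. The sequences are in GRCm38, the assembly that mm10 names, and are written on the strand of the gene. That of Catsper1 lies in exon 6 at chr19:5339792-5339848 on the plus strand, that of Catsper2 in exon 8 at chr2:121400147-121400203 on the minus strand, and that of Catsper4 in exon 7 at chr4:134217808-134217864 on the minus strand. The Catsper3 sequence joins exons 4 and 5 on the plus strand of chromosome 13, between bases 55804943 and 55805746.
Catsper1: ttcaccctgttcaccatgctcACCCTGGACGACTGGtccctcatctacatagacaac
Catsper2: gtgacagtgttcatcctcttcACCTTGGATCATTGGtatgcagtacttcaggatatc
Catsper3: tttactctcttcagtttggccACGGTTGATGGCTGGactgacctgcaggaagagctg
Catsper4: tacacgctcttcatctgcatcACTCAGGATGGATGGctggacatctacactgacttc

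Catsper1 also carries a histidine-rich amino-terminal part, which has been proposed to bear on the channel's response to pH. Histidine codons made up 9.18% of its 686 codons, against 1.77% to 2.71% in Catsper2, Catsper3 and Catsper4. The densest window of 40 codons, codons 203 to 242 in exon 1 at chr19:5336347-5336466 on the plus strand, held 21 of them, shown in capitals because this is what sets the first pore gene apart from the other 3 in sequence.
Catsper1 histidine window: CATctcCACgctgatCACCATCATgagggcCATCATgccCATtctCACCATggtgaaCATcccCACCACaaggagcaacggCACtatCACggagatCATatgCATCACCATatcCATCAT

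The libraries held between 29274603 and 38703606 counts, so the members were deeply sampled, with 1259 to 19237 counts for any member in any sample. Values below are counts per 1000000 counts (CPM) after TMM scaling, and a positive log2 fold change means a higher level in the knockout. Kifc1 itself was at 15.5, 16.1 and 14.7 CPM in the wild-type samples and at 0.326, 0.737 and 0.282 CPM in the knockout samples, and it fell by 5.09 on the log2 scale (SE 0.35, edgeR adjusted p = 0.00378). Mitochondrial genes took 0.661%, 0.912% and 0.935% of the counts in the wild-type libraries and 5.74%, 1.54% and 4.29% in knockout 1, 2 and 3. Knockout 2 stood apart from the other knockout samples, with a chi-square per degree of freedom of 135.1 against knockout 1 and 123.4 against knockout 3, where the other pairs within a group gave 15.4 to 50.3. Whether each sample is a different animal is not stated in the labels, so the p-values refer to the variation among these 6 samples and may reflect technical variation only. In whole testis, fewer cells of a type and less RNA per cell cannot be told apart.

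No CatSper gene passed the test for a difference between knockout and wild type. With edgeR's quasi-likelihood test, adjusted over all tested genes at a threshold of 0.05, 0 of 10 members were called, where 3.11% of all tested genes were called higher in the knockout and 5.12% lower. At an unadjusted p under 0.05, 1 of 10 members passed, against 27.1% of all tested genes, and that member was Catsper1. DESeq2 also called 1 of 10, again Catsper1 and higher in the knockout. It called 7.17% of the 21518 genes that passed the filter on low counts higher. That base includes genes to which DESeq2 gave no adjusted p. The 3 values of one group lay entirely above those of the other for 0 of 10 members, whereas 14.6% of all tested genes were separated in this way with the knockout higher and 18.1% with the knockout lower.

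The log2 fold change was positive for 6 members and negative for 4, with a median of 0.06 against -0.01 over all tested genes. The median size of the change, regardless of sign, was 0.22 for the members and 0.38 for all tested genes. Apart from Catsper1, the members lay between -0.37 and 0.33, and their 95% intervals between -0.84 and 0.81, which corresponds to 0.560 to 1.75 times the wild-type level. With 3 samples a group, differences inside a gene's own interval could not be told from none. That interval was narrower than the whole range for some genes, such as -0.38 to 0.23 for Catsper2 and -0.43 to 0.17 for Catsperd.

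**Figure D1:**
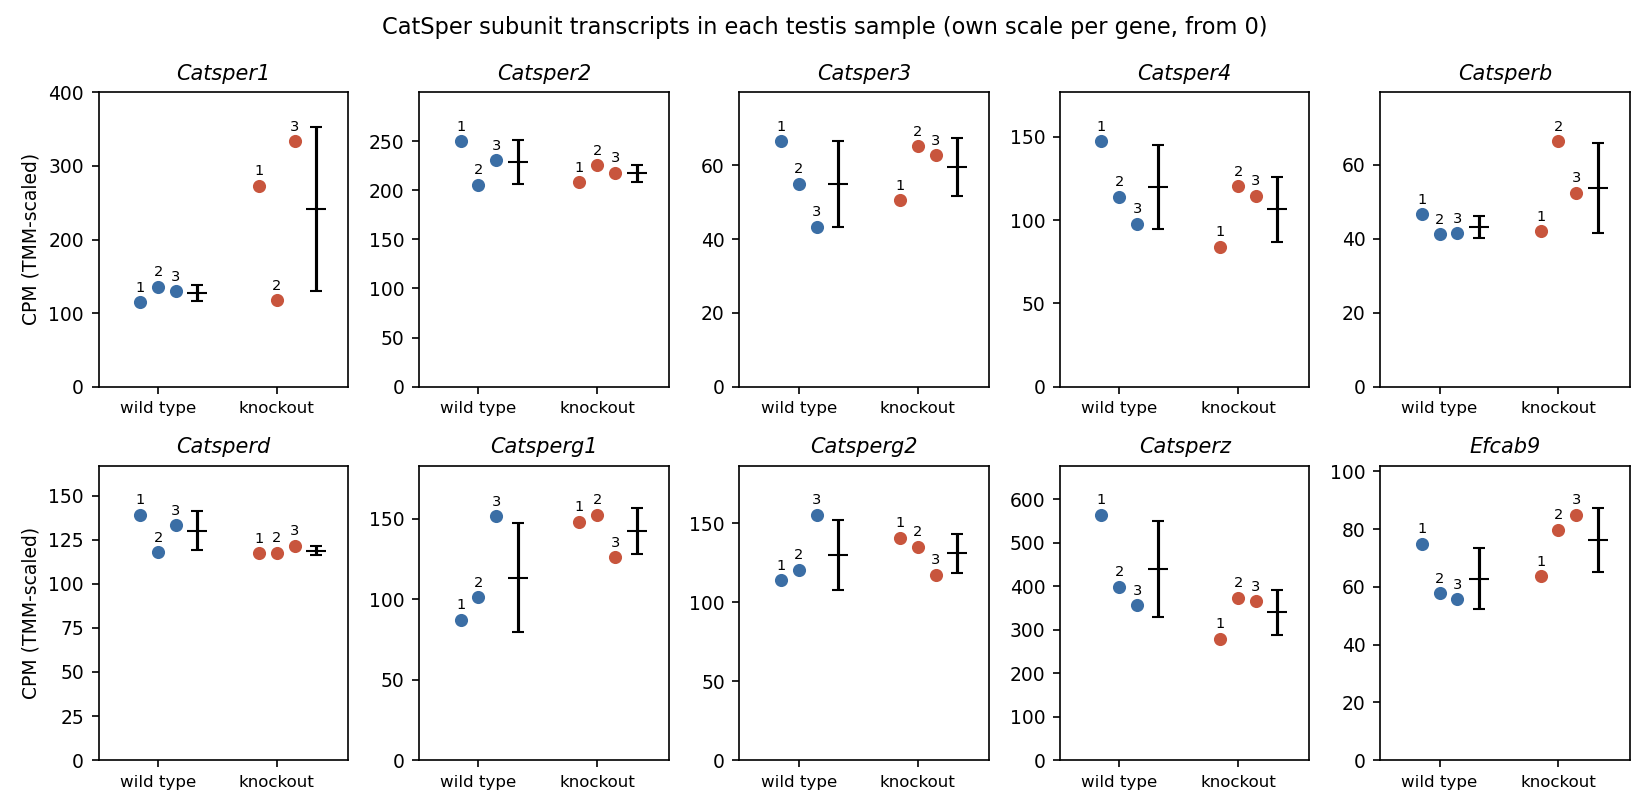
CPM of each CatSper gene in the 3 wild-type samples (blue) and the 3 KIFC1 knockout samples (red), numbered by replicate, on a scale that starts at 0 for each gene, with the mean and SD of each group in black. Catsper1 is at 273 and 334 CPM in knockout 1 and 3 and at 117 CPM in knockout 2, and the groups overlap in all 10 panels.

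Among the pore genes, Catsper1 differed most between samples. It was at 115, 136 and 130.1 CPM in the wild-type samples and at 273, 117 and 334 CPM in knockout 1, 2 and 3. Knockout 1 and 3 were thus above every wild-type sample, and knockout 2 was between the lowest and the next wild-type value, so that the groups overlapped. The log2 fold change was 0.93 (SE 0.32, 95% interval 0.19 to 1.66), with an unadjusted edgeR p of 0.0187 and an adjusted p of 0.107. DESeq2 gave 0.96 with an adjusted p of 0.0247.

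The call for Catsper1 turned on knockout 2. Without that library, edgeR gave a log2 fold change of 1.26 with an adjusted p of 0.00541, in a fit that called 6.62% of all tested genes higher. Leaving out any other library gave 0.64 to 0.98, with adjusted p-values from 0.197 to 0.279 and unadjusted edgeR p-values from 0.0359 to 0.0797. Those fits made few calls over all tested genes: 5, 1 and 425 without wild type 1, 2 and 3, and 1 and 327 without knockout 1 and 3. Catsper1 was the only member called under any of the alternatives run.

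Some transcripts of spermatid marker lists were high in the same samples, and others were not. Of 14 elongating spermatid markers, 4 were higher in both knockout 1 and knockout 3 than in the other 4 samples, as were 4 of 13 round spermatid markers. The pattern was not particular to spermatid lists. It was found for 4 of 12 Sertoli cell markers, 4 of 14 tested sperm ion transport genes and 5 of 20 capacitation genes. Pachytene spermatocyte markers gave 2 of 12 and Leydig cell markers 1 of 9, and the share over all tested genes was not counted. Smcp, which encodes a protein of the sperm mitochondrial capsule, was at 1549, 1934 and 1861 CPM in the wild-type samples and at 7584, 2206 and 9260 CPM in knockout 1, 2 and 3. Acr, the acrosomal protease acrosin, was at 182, 179 and 186 CPM against 316, 132 and 404 CPM. Gapdhs, the sperm form of the glycolytic enzyme, was at 1977, 2255 and 2501 CPM against 3014, 1547 and 4168 CPM. Each of these 3 genes, picked after their values were seen, was highest in knockout 1 and 3, as was the mitochondrial share of counts given above. Other markers of the same lists were lower in all knockout samples: Prm1, the sperm protamine, was at 3730, 2907 and 3251 CPM in the wild-type samples and at 2170.1, 1771 and 2316 CPM in the knockout, and the kinase gene Tssk6 at 676, 706 and 638 CPM against 276, 251 and 400.1 CPM. The part of these features in the Catsper1 values was not tested.

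Catsper2, the pore subunit with the highest wild-type mean in CPM of the 4, was at 249.9, 206 and 231 CPM in the wild-type samples and at 208, 226 and 218 CPM in the knockout. All 3 knockout values lay within the wild-type range, and the log2 fold change was -0.07 (SE 0.14, 95% interval -0.38 to 0.23, edgeR adjusted p = 0.768). Its exons share 18 bases, 0.487% of its exon length, with Pdia3 on the opposite strand, and since the strand setting of the counting is not given, reads there cannot be assigned.

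Catsper3 was at 66.6, 55.0 and 43.3 CPM in the wild-type samples and at 50.5, 65.1 and 62.8 CPM in the knockout. Its log2 fold change was 0.11 (SE 0.19, edgeR adjusted p = 0.743). Catsper4 was at 147, 114 and 97.8 CPM against 84.0, 120.5 and 115 CPM. Both pore genes had knockout 1 as their lowest knockout sample and overlapping groups, and Catsper4 had a log2 fold change of -0.17 (SE 0.20, adjusted p = 0.627 with edgeR).

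The make-up of the pore transcripts therefore varied among the knockout samples. On a scale of CPM per kilobase of exon, which allows genes to be compared, Catsper1 made up 21.9%, 29.3% and 29.7% of the summed level of the 4 pore genes in the wild-type samples. In knockout 1, 2 and 3 it made up 48.3%, 24.4% and 48.9%. The ratio of Catsper1 to Catsper2 per kilobase was 0.775, 1.12 and 0.953 in the wild-type samples and 2.21, 0.879 and 2.59 in the knockout. Knockout 2 fell inside the wild-type range in both measures, and knockout 1 and 3 fell above it.

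**Figure D2:**
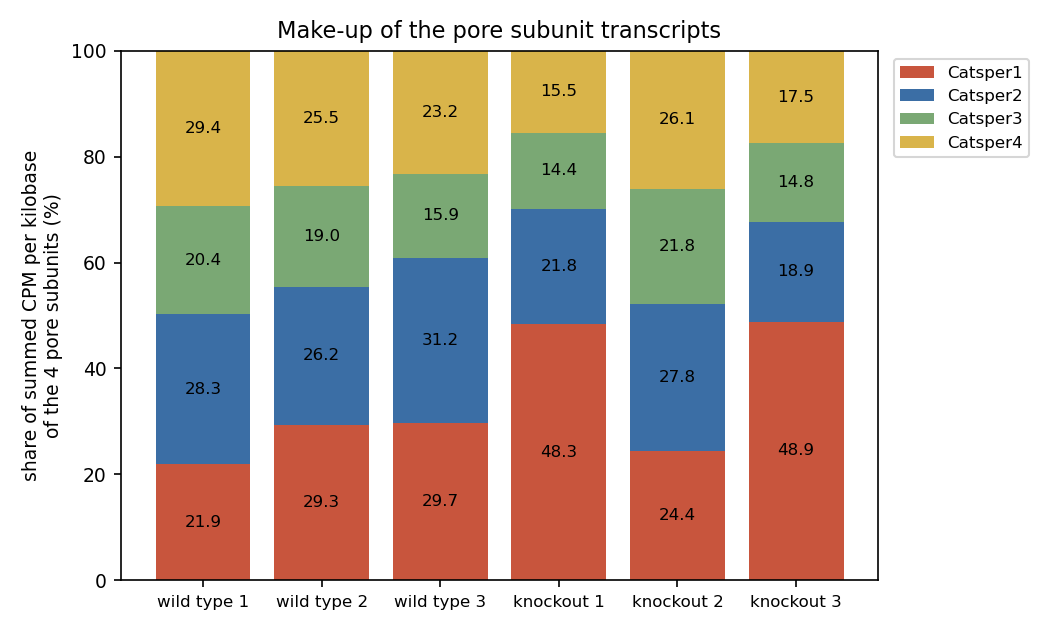
Share of each pore gene in the summed CPM per kilobase of exon of Catsper1, Catsper2, Catsper3 and Catsper4, as stacked percentages, with 1 bar per sample. Catsper1 takes 48.3% and 48.9% in knockout 1 and 3 and 21.9% to 29.7% in the other 4 samples.

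The genes for the extracellular canopy gave smaller differences. Catsperb, at 37.6% the member with the lowest exon GC content, was at 46.6, 41.2 and 41.4 CPM in the wild-type samples and at 42.0, 66.3 and 52.4 CPM in the knockout. Knockout 2 and 3 were above every wild-type sample and knockout 1 was not, and the log2 fold change was 0.32 (SE 0.19, 95% interval -0.11 to 0.74, edgeR adjusted p = 0.314). Catsperd was at 139, 118 and 133 CPM against 117, 118 and 122 CPM, the smallest spread among knockout samples of any member. The Catsperd log2 fold change was -0.13 (SE 0.13, edgeR adjusted p = 0.565).

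Mice carry a pair of genes for CATSPERG, Catsperg1 at chr7:29181321-29214035 and Catsperg2 at chr7:29697219-29727032, both on the minus strand. Their coding sequences were 96.4% identical, with 123 differing bases among 3435 aligned and 24 gap columns. Of all stretches of 50 bases in the Catsperg1 transcripts, 43.0% occurred unchanged in Catsperg2, and at 100 and 150 bases the shares were 23.7% and 13.1%. Read length and the handling of multi-mapping reads are not given. How the counts were divided between the pair, and whether reads matching both genes were counted, is therefore uncertain. Differences between the genes are in capitals in the most divergent stretch of 90 coding bases without a gap, bases 1660 to 1749 of each coding sequence, where 18 bases differ and reads can be told apart. It lies in exon 15 of Catsperg1 at chr7:29195422-29195511 and in exon 14 of Catsperg2 at chr7:29710018-29710107.
Catsperg1: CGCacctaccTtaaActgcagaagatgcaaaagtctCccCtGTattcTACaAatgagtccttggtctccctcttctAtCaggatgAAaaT
Catsperg2: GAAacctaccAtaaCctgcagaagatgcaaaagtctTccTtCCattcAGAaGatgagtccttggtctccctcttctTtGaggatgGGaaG

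Catsperg1 was at 87.4, 101 and 151 CPM in the wild-type samples and at 148, 153 and 126 CPM in the knockout. Catsperg2 was at 114, 120.5 and 155 CPM against 141, 135 and 117 CPM. In both genes wild type 3 was well above the other wild-type samples and reached the knockout range or beyond it. The log2 fold change was 0.33 for Catsperg1 (SE 0.21, edgeR adjusted p = 0.353) and 0.01 for Catsperg2 (SE 0.16, edgeR adjusted p = 0.971). Without wild type 3 all the knockout values of Catsperg1 lay above the wild-type ones, but edgeR did not call it (adjusted p = 0.105). In the same comparison all the knockout values of Catsperz lay below the wild-type ones. The share of all tested genes separated in this way was not counted.

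The ratio of Catsperg1 to Catsperg2 counts needs no scaling between libraries. It was 0.768, 0.842 and 0.975 in the wild-type samples and 1.05, 1.13 and 1.08 in the knockout samples. The groups did not overlap, with means of 0.862 ± 0.105 and 1.09 ± 0.0401 (SD, n = 3 each), a difference of 1.27-fold or 0.34 on the log2 scale. A two-sided exact permutation test over samples gave p = 0.1, the smallest that 3 against 3 samples allow, and the ratio was chosen after its values were seen. Summed over the pair, the level was 201, 222 and 307 CPM in the wild-type samples and 289, 288 and 243 CPM in the knockout, with overlapping groups.

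**Figure D3:**
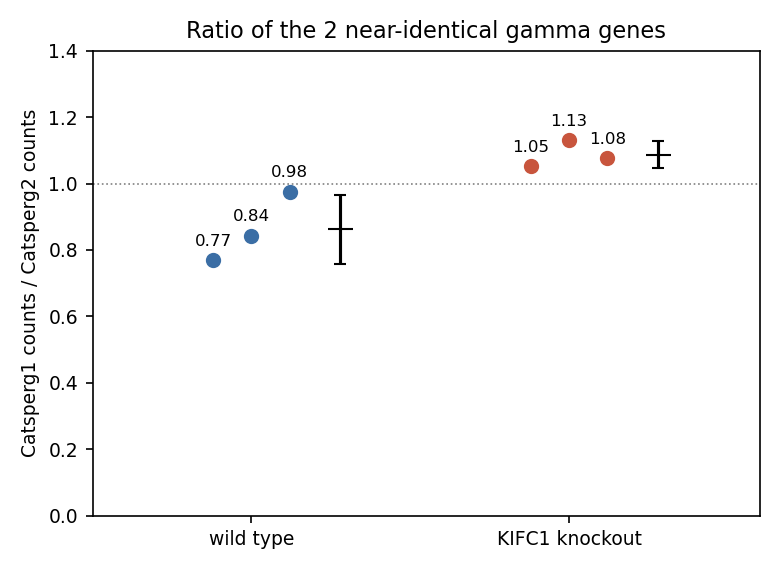
Ratio of Catsperg1 to Catsperg2 counts in each sample, with the mean and SD of each group and a dotted line at equal counts. The 3 wild-type samples lie between 0.768 and 0.975 and the 3 knockout samples between 1.05 and 1.13.

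For the intracellular pair, Catsperz was at 565, 399 and 357 CPM in the wild-type samples and at 279, 374 and 366 CPM in the knockout. Wild type 1 was the highest and knockout 1 the lowest, and the other 4 samples lay between 357 and 399 CPM. The log2 fold change was -0.37 (SE 0.20, 95% interval -0.84 to 0.09, edgeR adjusted p = 0.276). Catsperz shares 587 exon bases, 46.5% of its exon length, with the potassium channel gene Kcnk4 on the same strand, which was counted at a mean of 0.0885 CPM. How reads on overlapping genes were counted is not given, so the Catsperz counts may lack reads from the shared bases. Efcab9 was at 74.9, 57.9 and 55.7 CPM against 63.7, 79.8 and 85.0 CPM, with a log2 fold change of 0.28 (SE 0.18, adjusted p = 0.350 with edgeR). Knockout 2 and 3 were above every wild-type sample for Efcab9, while for its binding partner Catsperz they were inside the wild-type range.

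Per kilobase of exon the subunit genes differed widely in level. In wild type, Catsperz led with 349 ± 87.1 CPM per kilobase (SD, n = 3). Catsper2 with 61.9 ± 6.02, Efcab9 with 60.2 ± 10.1, Catsper1 with 58.0 ± 5.07 and Catsper4 with 57.0 ± 12.1 CPM per kilobase followed as a group whose neighbours overlapped. Catsper3 at 40.4 ± 8.54 and Catsperd at 36.2 ± 3.05 CPM per kilobase also overlapped, as did Catsperg2 at 18.5 ± 3.18 and Catsperg1 at 16.1 ± 4.78 CPM per kilobase. Catsperb was lowest at 7.79 ± 0.550 CPM per kilobase, 44.7 times below Catsperz. The Catsperz level uses its full exon length, though reads in the bases shared with Kcnk4 may not have been counted. On this scale the order had 3 steps at which the samples of neighbouring genes did not overlap: below Catsperz, between Catsperd and Catsperg2, and between Catsperg1 and Catsperb. Reads matching both Catsperg1 and Catsperg2 may not have been counted, so the places of this pair and the steps beside it are uncertain.

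In the knockout, Catsperz remained first at 269 CPM per kilobase and Catsperb last at 9.70 CPM per kilobase. Catsper1 moved from 4th to 2nd with 110.4 ± 51.0 CPM per kilobase (SD, n = 3), and Catsperg1 moved above Catsperg2. With the length of 1 representative transcript in place of all exons, Catsper4 stood above Catsper1 and Catsperd above Catsper3 in wild type, and Catsperz and Catsperb kept their places. Catsper3 at 41.3 ± 8.74 then stood next to Catsperg2 at 37.8 ± 6.50 CPM per kilobase of transcript (SD, n = 3). These means lay within 1 SD of each other, so the step above Catsperg2 depended on the length used.

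**Figure D4:**
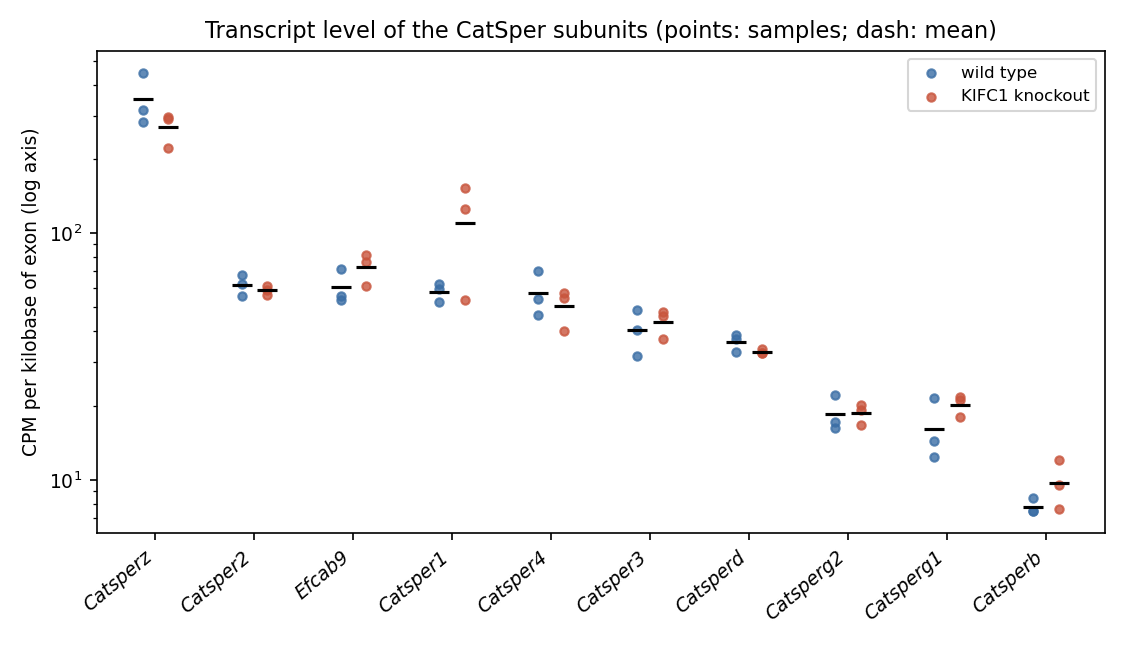
CPM per kilobase of exon of each CatSper gene on a log axis, with points for the 3 wild-type (blue) and 3 knockout (red) samples and a dash at each mean, ordered by the wild-type mean. Levels run from 349 CPM per kilobase for Catsperz to 7.79 for Catsperb in wild type.

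Summed over all 10 genes, the level was 834, 656 and 624 CPM per kilobase in the wild-type samples and 622, 678 and 762 in the knockout samples. The groups overlapped, and the mean log2 difference of -0.03 had p = 0.8 in a two-sided exact permutation test. Without Catsper1, an alternative chosen after the data were seen, the difference was -0.16 with an exact p of 0.6. Catsperz weighed most in the sum over all 10 genes. Its mean was 349 of 705 CPM per kilobase in wild type and 269 of 687 in the knockout. In wild type 1, Catsperz was at 447 of the 834 CPM per kilobase. A sum without Catsperz was not computed.

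The libraries also differed in how counts depend on the GC content and length of a gene's exons. With these trends removed from each library, edgeR called 0 of 10 members, where it called 0.0744% of all tested genes in either direction. The members' median log2 fold change was then 0.0051, against 0.0098 over all tested genes, with 5 positive and 5 negative. Groups no longer overlapped for 2 of 10 members, Catsper1 and Efcab9, against 27.6% of all tested genes in either direction. Catsper1 was then at 103, 127 and 128.4 CPM in the wild-type samples and at 298, 129.3 and 336 CPM in the knockout, so that knockout 2 exceeded the highest wild-type sample by less than the wild-type samples differed among themselves. Its log2 fold change was 1.09 (SE 0.31, edgeR adjusted p = 0.101), and without knockout 2, an alternative added after the data were seen, it was 1.4 with an adjusted p of 0.00449.

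The other end of the GC range moved as well. Catsperb went from a log2 fold change of 0.32 to -0.20 (edgeR adjusted p = 0.558), a turn in direction, and its corrected values were 57.1, 48.1 and 49.1 CPM in the wild-type samples and 34.2, 52.6 and 47.9 CPM in the knockout. Catsperz, at 54.7% the member with the highest GC content, went from -0.37 to -0.0050 (edgeR adjusted p = 0.989). Efcab9 was at 65.9, 60.7 and 64.3 CPM against 68.8, 71.0 and 83.1 CPM after correction, with a log2 fold change of 0.22. Apart from Catsper1, the members then lay between -0.20 and 0.29.

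**Figure D5:**
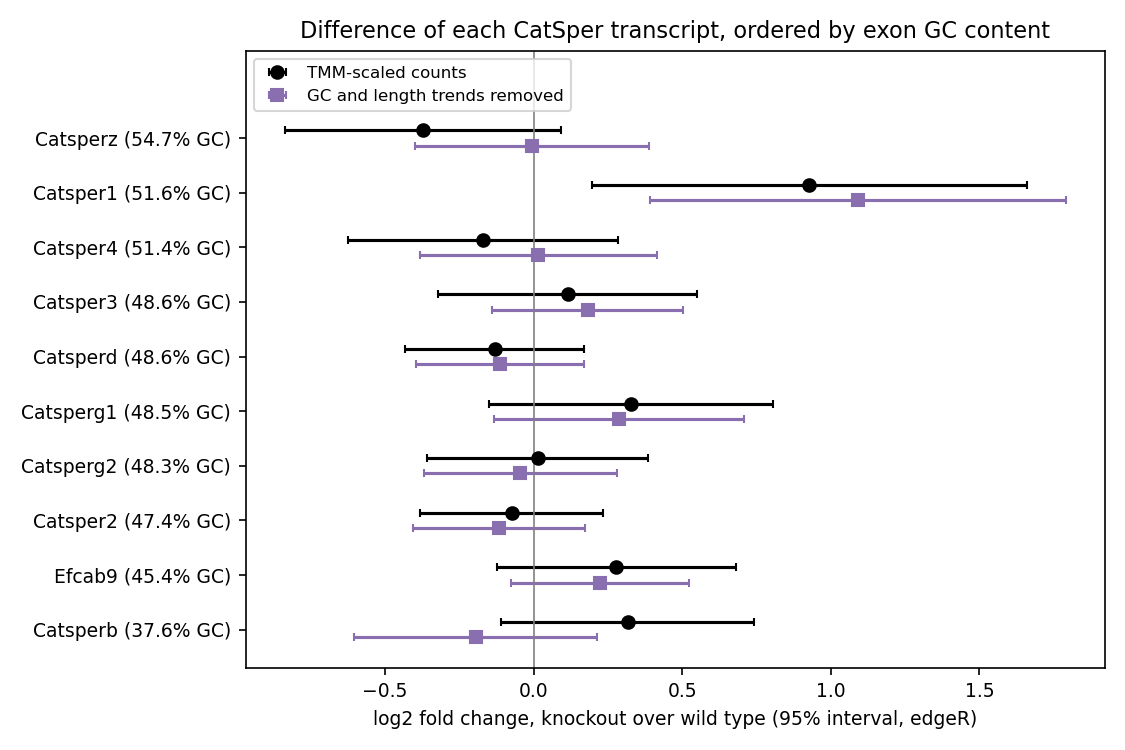
Log2 fold change of each CatSper gene, knockout over wild type, with its 95% interval from edgeR, ordered by exon GC content, from TMM-scaled counts (black circles) and with each library's GC and length trends removed (purple squares). Catsperb and Catsperz move towards or across 0 with the correction, and Catsper1 stays near 1.

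A second list held 7 proteins found with the assembled channel or needed to place it, of which 6 genes were measured and Tmem249 was not analysed here. Of the 6, edgeR called 1 higher and 0 lower, against 3.11% and 5.12% of all tested genes, and the list's median log2 fold change was 0.29 against -0.01 over all tested genes. C2cd6, whose protein is needed to bring the complex to the flagellum, was at 192, 185 and 177 CPM in the wild-type samples and at 313, 246 and 348 CPM in the knockout. All knockout samples were above all wild-type samples, and C2cd6 rose by 0.71 on the log2 scale (SE 0.16, edgeR adjusted p = 0.0335). With the GC and length trends removed, the C2cd6 value was 0.51 with an adjusted p of 0.157, and without the filter on low counts the adjusted p was 0.0511.

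Tmem262, a small membrane protein of the complex, was at 17.4, 12.4 and 12.2 CPM in the wild-type samples and at 7.88, 9.36 and 8.54 CPM in the knockout. Its groups did not overlap, and the log2 fold change of -0.71 (SE 0.21) had an adjusted p of 0.0675 with edgeR and 0.0290 with DESeq2. Slco6c1, an organic anion transporter found beside the channel, was at 132, 107 and 102 CPM against 148, 150.4 and 141 CPM. Its groups did not overlap either, but the log2 fold change of 0.37 (edgeR adjusted p = 0.15) became -0.11 with the GC and length trends removed.

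Trim69, an E3 ubiquitin ligase gene, had a log2 fold change of -0.06 (SE 0.15, adjusted p = 0.843 with edgeR). The genes for the canopy subunit CATSPERE, Catspere1 and Catspere2, had values of 0.30 (SE 0.18, edgeR adjusted p = 0.325) and 0.27 (SE 0.27, edgeR adjusted p = 0.548). The pair lies on chromosome 1 and Catspere1 is annotated as a pseudogene in GENCODE M21. Since 25.1% of its stretches of 50 bases occur in Catspere2, the division of reads between them is uncertain.

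No other sperm ion channel or transporter gene on the list passed the edgeR test either. Of 16 listed genes, 14 were tested and edgeR called 0, where 3.11% of all tested genes were called higher and 5.12% lower. The list's median log2 fold change was 0.14, against -0.01 over all tested genes. The other 2 listed genes, Slc9b2 and Slc26a3, were at 4 counts or fewer in every library. Kcnu1, the pore of the alkaline-activated potassium channel of sperm, came nearest to the threshold. It was at 84.7, 80.4 and 68.8 CPM in the wild-type samples and at 129, 97.8 and 159 CPM in the knockout, without overlap, and had a log2 fold change of 0.72 (SE 0.19, adjusted p = 0.0542 with edgeR and 0.0114 with DESeq2). The members with the highest levels per kilobase were the sperm sodium pump gene Atp1a4, at 227 CPM per kilobase in wild type and 204 in the knockout, and the anion transporter gene Slc26a8, at 41.5 and 45. Their log2 fold changes were -0.16 (SE 0.15, edgeR adjusted p = 0.525) and 0.12 (SE 0.16, edgeR adjusted p = 0.686).

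Genes of the signalling that accompanies capacitation, the maturation that readies sperm for fertilisation, gave 3 calls higher and 0 lower among 20 tested, where 3.11% of all tested genes were called higher and 5.12% lower. The median log2 fold change of the list was 0.05. Cabyr, a calcium-binding protein of the fibrous sheath of the tail, was at 369, 371 and 329.7 CPM in the wild-type samples and at 749, 501 and 981 CPM in the knockout. Its 3 knockout values exceeded all wild-type values, with the highest again in knockout 1 and 3, and it rose by 1.06 on the log2 scale (SE 0.23, edgeR adjusted p = 0.0303). Akap14, an anchoring protein for protein kinase A, rose by 1.06 (SE 0.19, edgeR adjusted p = 0.0186), from 12.9 ± 0.737 to 27.0 ± 4.83 CPM (SD, n = 3 each). It shares 49 exon bases with Nkap on the opposite strand.

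Enkur, an adaptor protein that binds calcium channels in sperm, rose by 0.78 (SE 0.14, edgeR adjusted p = 0.0194), from 90.2 ± 6.78 to 155 ± 11.4 CPM (SD, n = 3 each). The members with the highest levels per kilobase were the fibrous sheath scaffold gene Akap4, with a log2 fold change of 0.15 (SE 0.15, adjusted p = 0.564 with edgeR), and the calmodulin gene Calm2, with 0.42 (SE 0.15, edgeR adjusted p = 0.121). The calls of C2cd6, Cabyr, Akap14 and Enkur rest on all libraries other than knockout 2: without any 1 of wild type 1, 2 or 3 or knockout 1 or 3, the edgeR adjusted p of each was between 0.0519 and 0.141. Those fits made 1 to 425 calls over all tested genes. With the GC and length trends removed, in the fit with 16 calls over all tested genes, none of the 4 was called, with adjusted p-values between 0.0626 and 0.157. The log2 fold changes were then 1.06 for Akap14, 1.007 for Cabyr, 0.59 for Enkur and 0.51 for C2cd6.

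Marker lists for the cells of the testis are given beside these values, where edgeR called 3.11% of all tested genes higher and 5.12% lower and their median log2 fold change was -0.01. Of 14 markers of elongating spermatids, 2 were called higher and 4 lower, with a median of -0.27 (-0.07 with the GC and length trends removed). Their summed level was 24191 to 25525 CPM in wild type and 25150, 17730 and 30233 CPM in knockout 1, 2 and 3. Smcp added most to that sum in knockout 1 and 3. Without it, an omission chosen after the data were seen, the sum was 22257 to 23976 CPM in wild type and 17566, 15524 and 20972 CPM in the knockout, lower in every knockout sample. Round spermatid markers gave 1 higher and 1 lower of 13, a median of 0.16, and sums of 1647 to 1966 CPM in wild type and 1694 to 2280 CPM in the knockout. Pachytene spermatocyte markers gave 2 higher and 1 lower of 12, a median of -0.14, and sums of 7308 to 9655 CPM against 6452 to 7971 CPM.

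The somatic lists had positive medians. Leydig cell markers, with 0 of 9 called, had a median log2 fold change of 0.84 (0.77 with the trends removed). All knockout samples were above all wild-type samples for 4 of 9 and the reverse held for 0, against 14.6% and 18.1% of all tested genes. Their sums were 654, 1443 and 1329 CPM in wild type and 1804, 1197 and 1278 CPM in the knockout, with wild type 1 lowest. Sertoli cell markers gave 1 higher and 1 lower of 12, a median of 0.13 (0.47 with the trends removed), and sums of 1153 to 1584 CPM against 1337 to 2021 CPM. No marker was at 0 in all libraries. The part of these cell types in the CatSper values was not tested.

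The profiles of the 10 members over the 6 samples differed from each other. Each member's centred log2 profile differed from the mean of the 10 by a root mean square of 0.11 (Catsper2) to 0.59 (Catsper1), and that mean stayed between -0.13 and 0.14. Among 8765 candidates with a mean of at least 10 CPM, the genes nearest to this flat mean were Bbs4, Poln, Wipi1, Gtf2f1 and Bora, at 0.0336 to 0.0408. Catsper1 taken alone, a comparison added after its values were seen, lay nearest to Zfp362, Ubap2l, Smn1, Zfand3 and Paxip1, with differences of 0.0808 to 0.0986. Ubap2l, for example, was at 201, 237 and 258 CPM in the wild-type samples and at 566, 229.9 and 631 CPM in knockout 1, 2 and 3. Its log2 fold change was 1.03 (edgeR adjusted p = 0.0837).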

How the data were processed

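RNA was measured in whole testis, 3 wild-type and 3 KIFC1 knockout samples. Each sample has a deposited file of whole-number counts per gene, which the authors left without normalization. The submitters' processing notes name Trimmomatic, HISAT2, HTSeq and mm10, and per the labels' protocols libraries were made with a dual-mode mRNA kit. The annotation release, strand setting, read length and treatment of multi-mapping reads are among the details not given in the sources used here. Of 51826 identifiers, GENCODE M21 matched 51633, and 17151 genes had 0 counts everywhere. A count of 3 corresponds to 0.0775 to 0.102 CPM, for counting error only.

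Differences were tested by quasi-likelihood with edgeR 4.0.16 (limma 3.58.1, R 4.3.3), using TMM scaling and filterByExpr, two-sided, with Benjamini-Hochberg adjustment over all 21518 tested genes. It was tested on simulated data. Standard errors come from the fold change and its F statistic. Log2 profiles used a prior count of 2. Alternatives were other scalings and filters, DESeq2 1.42.0, a replicate block, offsets removing each library's trends with exon GC content and length (splines with 5 degrees of freedom, 12751 genes), no mitochondrial genes, and each sample left out. Replicate numbers were not taken to pair samples: deviations of same-numbered samples correlated at -0.47, -0.12 and -0.14 over 12761 genes.

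The members and lists were chosen with earlier results of these data known. Named were all members, Kifc1, all listed channel partners, and of the ion transport and capacitation lists up to 4 called genes with the smallest p and the 2 with the highest CPM per kilobase. The 5 nearest profiles were also named. Kcnu1, Smcp, Acr, Gapdhs, Slc9b2, Slc26a3 and the genes nearest to Catsper1 were named after their values were seen.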

Additional observations from a re-analysis of the deposited data

How the results depend on the processing

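Over all tested genes, 1770 were called, against 1010 with no filter on low counts, 3305 with DESeq2, 8 with GC offsets, 16 with GC and length offsets and 2936 with these and knockout 2 left out. With the replicate block 21 were called, 0 members and 0 genes of the other 3 pathway lists. Leaving out 1 sample gave 1 to 3149 calls: 5, 1 and 425 without wild type 1, 2 and 3, and 1, 3149 and 327 without knockout 1, 2 and 3. The cause of these shifts was not tested. The count of CatSper members called, 0, became 1 with DESeq2 and with the offsets and knockout 2 left out, and ran from 0 to 1 over single samples left out, each time Catsper1. The 4 calls in the other lists became 9 with DESeq2, 0 with GC offsets, 0 with GC and length offsets, 8 with these and knockout 2 left out, and 0 to 6 without 1 sample. Members with separate groups, 0, became 1 with GC offsets, 2 with GC and length offsets, 3 with these and knockout 2 left out, and 0 to 2 without 1 sample. With GC and length offsets 27.6% of all tested genes had separate groups, and this share was not counted for the other alternatives. Groups of fewer samples separate more easily. The summed level difference ran from -0.11 to 0.10 without 1 sample. Signs turned for Catsper4 (0.015 with GC and length offsets), Catsperb (-0.22 with GC and -0.20 with both offsets) and Catsperg2 (-0.0085 with library size alone, -0.012 with GC and -0.045 with both offsets). Without 1 sample, Catsper2 ran from -0.15 to 0.017, Catsper3 from -0.033 to 0.30, Catsper4 from -0.30 to 0.031, Catsperb from 0.13 to 0.46 and Catsperg2 from -0.053 to 0.16. Catsper1, Catsperd, Catsperg1, Catsperz and Efcab9 kept their sign in all alternatives run. The members had 1259 counts or more in every library.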
